A study of Rattus norvegicus with 10 samples.

Results

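Immediate early genes were followed from rat to rat in the right brain of 10 animals that had breathed either water vapor or the vapor of DMHF, a furanone aroma compound. The genes were chosen by name, with earlier results of these data known: 33 rat symbols of transcripts known to be induced within minutes of neuronal activity. Of these, 32 were measured, by 60 probe sets that the platform annotation ties to exactly 1 gene, out of 31042 probe sets (14217 genes) in all. Btg2 had no such probe set. Each array carried RNA from 1 male Wistar rat aged 7 weeks, 5 control rats given vapor of distilled water and 5 given DMHF vapor. Inhalation lasted 5 min over 5 mL of liquid in a flask, shortly before the dark period, and a rest of 10 min followed before the brain was taken. All 10 rats thus shared the handling, the air flow and the wait, and no rat left in its cage was analysed here. The titles call the samples biological replicates and number them 1 to 5 in each group, with no further meaning given to the numbers.

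Immediate early genes are transcribed without new protein synthesis when calcium or growth factor signals reach the nucleus. Kinases phosphorylate CREB and the ETS partners of SRF, transcription factors that are already present in the resting cell. The products fall into classes: the Fos and Jun proteins, which pair as the AP-1 transcription factor, the zinc finger factors of the Egr family, the orphan nuclear receptors Nr4a1, Nr4a2 and Nr4a3, phosphatases such as Dusp1 that end the kinase signal, and synaptic effectors such as Arc. In the brain their mRNA is widely used as a marker of recently active neurons, and it also responds to handling and to new surroundings.

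CREB binds the cyclic AMP response element, TGACGTCA, or its shorter form TGACG, and SRF binds the CArG box. The windows below, from 250 bases before to 50 after the annotated start in RefSeq's rat assembly GRCr8, show these elements in 5 of the genes that followed Fos most closely from rat to rat, and in Jund, which followed it weakly. They lie at chr19:40080876-40081175 on the plus strand (Junb), chr7:134259888-134260187 on the plus strand (Nr4a1), chr10:17184603-17184902 on the plus strand (Dusp1), chr3:62104838-62105137 on the minus strand (Nr4a2), chr20:21054392-21054691 on the minus strand (Egr2) and chr16:18769722-18770021 on the minus strand (Jund). Each is written 5′ to 3′ in the direction of its gene, and capitals mark the short element on either strand (TGACG or CGTCA), the full element that contains it, and the CArG box.
Junb: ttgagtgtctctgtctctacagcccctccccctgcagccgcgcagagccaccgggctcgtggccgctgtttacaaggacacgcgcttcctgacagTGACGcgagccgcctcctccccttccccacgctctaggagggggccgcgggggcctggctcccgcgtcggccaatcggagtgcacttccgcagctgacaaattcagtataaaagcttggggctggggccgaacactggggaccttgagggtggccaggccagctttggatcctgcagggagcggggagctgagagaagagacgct
Nr4a1: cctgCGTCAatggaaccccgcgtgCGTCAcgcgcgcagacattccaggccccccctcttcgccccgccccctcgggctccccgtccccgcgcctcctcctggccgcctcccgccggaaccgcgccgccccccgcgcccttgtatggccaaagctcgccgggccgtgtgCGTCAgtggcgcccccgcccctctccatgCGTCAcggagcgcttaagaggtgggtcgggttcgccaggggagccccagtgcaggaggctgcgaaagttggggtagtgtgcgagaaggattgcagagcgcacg
Dusp1: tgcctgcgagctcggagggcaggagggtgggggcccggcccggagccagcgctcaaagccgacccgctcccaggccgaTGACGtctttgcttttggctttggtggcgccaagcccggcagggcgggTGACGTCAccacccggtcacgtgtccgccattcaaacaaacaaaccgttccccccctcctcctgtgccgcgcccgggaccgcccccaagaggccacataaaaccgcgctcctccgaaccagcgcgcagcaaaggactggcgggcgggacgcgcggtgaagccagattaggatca
Nr4a2: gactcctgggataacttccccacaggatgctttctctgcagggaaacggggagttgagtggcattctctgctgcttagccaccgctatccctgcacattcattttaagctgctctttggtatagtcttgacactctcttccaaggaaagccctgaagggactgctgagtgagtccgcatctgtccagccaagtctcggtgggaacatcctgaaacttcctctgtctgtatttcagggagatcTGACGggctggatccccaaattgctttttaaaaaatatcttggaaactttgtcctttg
Egr2: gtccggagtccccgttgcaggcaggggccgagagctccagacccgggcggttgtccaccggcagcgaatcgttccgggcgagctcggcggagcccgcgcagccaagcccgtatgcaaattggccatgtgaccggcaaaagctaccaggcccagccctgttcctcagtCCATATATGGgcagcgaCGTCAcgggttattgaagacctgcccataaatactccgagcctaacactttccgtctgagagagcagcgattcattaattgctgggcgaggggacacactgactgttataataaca
Jund: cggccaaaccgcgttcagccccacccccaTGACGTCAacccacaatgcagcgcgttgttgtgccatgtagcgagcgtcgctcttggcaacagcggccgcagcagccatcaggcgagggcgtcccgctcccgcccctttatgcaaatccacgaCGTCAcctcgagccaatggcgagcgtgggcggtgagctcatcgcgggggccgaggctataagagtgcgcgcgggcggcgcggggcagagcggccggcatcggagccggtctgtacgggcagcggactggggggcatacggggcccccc
The Nr4a1 window held the short element 4 times and those of Dusp1 and Jund 3 times, counting both strands of a full element. Dusp1 and Jund each held 1 full element, and Egr2 held 1 CArG box. Of the 33 genes, 25 had a window in the RefSeq table used, and Fos, Jun, Arc, Atf3, Trib1, Nr4a3, Klf2 and Egr3 were not matched. Some genes had more than 1 window, 30 in all for the 25, and a gene was counted where any of its windows held the letters. The short element was present in 16 of the 25 genes, against 23% of 27457 genes in the table (21.2% of 33469 windows). A full element was present in 5 of 25 (Btg2, Dusp1, Ier2, Jund and Maff), against 2% of all genes, and a CArG box in 3 of 25 (Egr1, Egr2 and Zfp36), against 1.77%. A TATA box (TATAAA, both strands) was present in 8 of 25, against 15.3%. Among the 16 of these genes with an unadjusted p under 0.05 for covariation with Fos, 11 held the short element, as did 4 of the 8 remaining measured genes. A match of letters is a description of the window and was not tied to the expression values.

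The deposited scale, read here as log2 expression, reached from 5.25 to 14.22. Each array had a median of 7.24, the medians spanned 15.2 millionths of a log2 unit, and 0 pairs of arrays were identical. Differences between arrays were very small on this scale: the within-group SD of a probe set had a median of 2.17 millionths. All values below are therefore in millionths of a log2 unit from the mean of the 5 control rats, and differences are also scaled by the probe set's own within-group SD. No fold change of RNA follows from them, and levels of different probe sets are not compared. Where a gene had several probe sets, the one with the highest mean level stands for it. In a rough check of the tissue, 10 of 10 neuron markers, 8 of 8 astrocyte markers and 7 of 7 oligodendrocyte markers measured lay above the median level of all probe sets.

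Fos, a partner in AP-1 and the most used activity marker, differed widely between rats of the same treatment. In control rats 1 to 5, Fos stood at -5409, 1351, 5032, -776 and -198 millionths from the control mean. In DMHF rats 1 to 5 it stood at -2553, -794, 2976, -2149 and 2155. Control rat 1 was the lowest and control rat 3 the highest of all 10, rats 1 and 3 were also the lowest and highest of the DMHF group, and the DMHF values lay inside the range of the controls.

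Junb, a second AP-1 subunit, ordered the rats in nearly the same way. Its control values were -453, -25.7, 504, 51.6 and -76.5 millionths, and its DMHF values -214, -66.3, 219, -160 and 84.8. Jun itself did not share the pattern. It stood at 0.93, 1.36, -2.23, -0.23 and 0.17 millionths in control rats and at 3.76, -5.14, -5.63, 0.43 and 4.40 in DMHF rats, so that rat 3, the highest for Fos, was the lowest for Jun in both groups on the deposited scale. Fosb, whose truncated product accumulates with repeated stimulation, stood at -120, 27.8, 48.7, -27.7 and 71.3 in control rats and at -139, 67.4, 75.3, -106 and -15.8 in DMHF rats. Rat 1 was again the lowest for Fosb in both groups, but control rat 5, not 3, was the highest control.

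The Egr factors are zinc finger proteins that bind GC-rich promoters of later response genes. Egr1 stood at -466, 120, 432, 28.5 and -115 millionths in control rats and at -350, 179, 464, -177 and 137 in DMHF rats. Egr2 stood at -4193, 1158, 4311, -370 and -905 in control rats and at -2928, 1797, 4347, -1595 and 897 in DMHF rats. Egr4 stood at -475, 42.5, 439, -44.2 and 37.3 in control rats and at -308, 214, 383, -188 and 146 in DMHF rats. For all 3, rat 1 was the lowest and rat 3 the highest of its group, and DMHF rat 2 lay above the control mean although it lay below it for Fos. Egr3, which is induced by Egr1 and by strong synaptic input, spanned only -2.04 to 2.18 millionths in control rats and -0.04 to 5.55 in DMHF rats, with rat 2 the highest in both groups.

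The Nr4a receptors act without a known endogenous ligand and are switched on through CREB. Nr4a1 stood at -2181, -338, 2338, 249 and -67.4 millionths in control rats and at -985, -127, 1185, -621 and 792 in DMHF rats. Nr4a2 stood at -101, 49.3, 85.2, -4.54 and -28.5 in control rats and at -105, -63.6, 99.6, -57.4 and 26.2 in DMHF rats. Nr4a3 stood at -313, 28.2, 364, -21.5 and -57.2 in control rats and at -316, 156, 343, -26.5 and -24.8 in DMHF rats. Rats 1 and 3 were the ends of each group for all 3 receptors, while the order of the rats between them differed from gene to gene.

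Arc, a synaptic protein that promotes the removal of AMPA-type glutamate receptors, stood at -1364, -302, 1505, 438 and -277 millionths in control rats. Its DMHF values were -934, -174, 930, -610 and 539. Dusp1, a phosphatase that inactivates MAP kinases, stood at -505, 67.9, 596, -88.9 and -69.5 in control rats and at -131, -302, 150, -245 and 134 in DMHF rats, with DMHF rat 2 rather than 1 the lowest of its group. Klf2, a zinc finger factor also prominent in endothelium, stood at -592, -110, 559, -41.5 and 184 in control rats and at -277, -364, 92.0, -222 and -39.4 in DMHF rats, again with DMHF rat 2 the lowest. Ptgs2, the inducible cyclooxygenase, stood at -81.9, -99.2, 338, -38.4 and -118 in control rats and at -86.1, 1.03, 132, -151 and 92.0 in DMHF rats. Control rat 3 stood apart for Ptgs2, and the other 4 controls lay within the DMHF range.

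**Figure D1:**
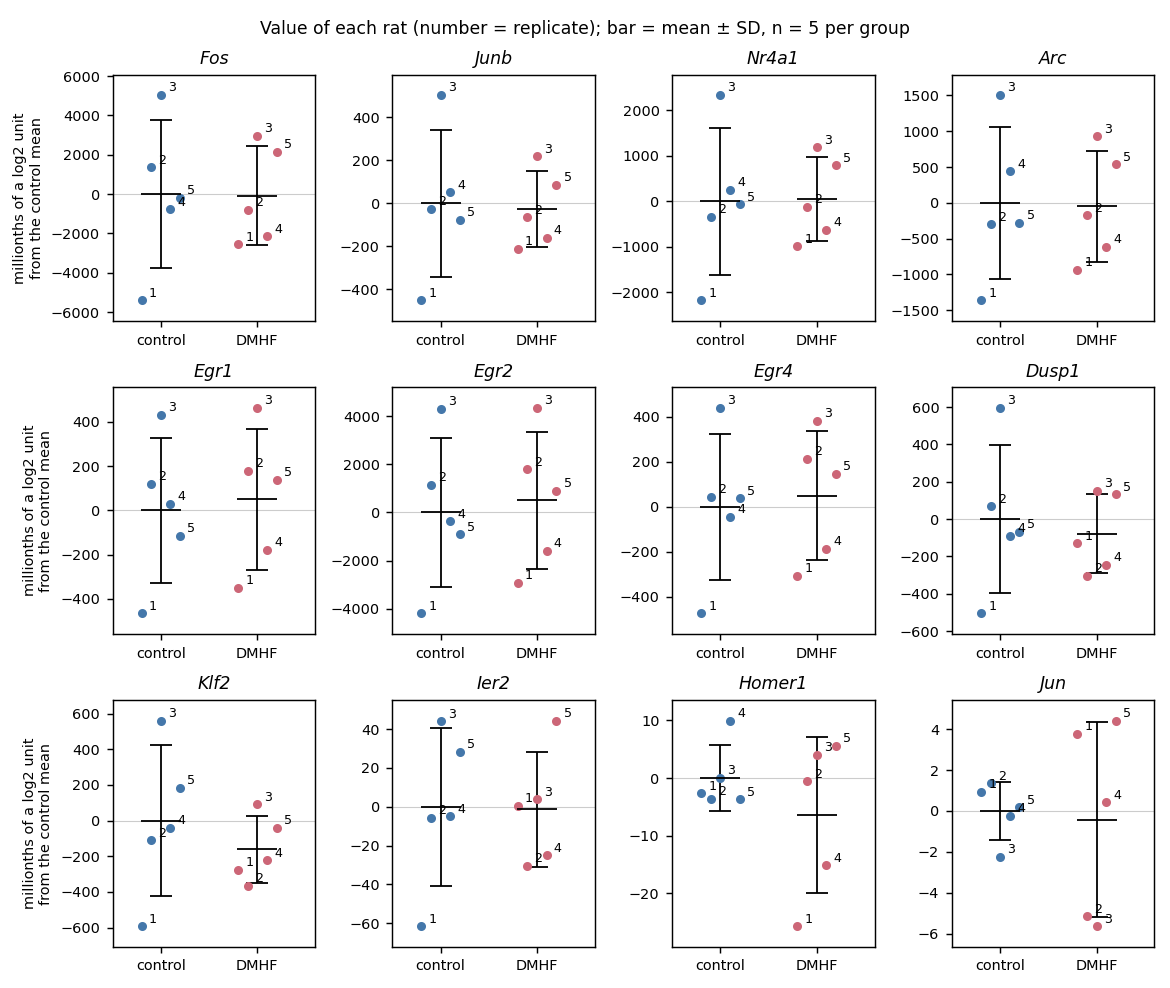
Values of 12 immediate early genes in each rat, in millionths of a log2 unit from the control mean (y axis), for control and DMHF rats (x axis). Points are rats with their replicate number, bars are mean ± SD of 5 rats, and the scale differs between panels. Rat 1 is the lowest and rat 3 the highest of both groups for Fos, Junb, Nr4a1, Arc, Egr1, Egr2 and Egr4, but not for Homer1 or Jun.

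The study's comparison asks whether inhaling DMHF changed expression in the brain within this short time, and no immediate early gene passed the test. Of the 60 probe sets, 0 had a limma adjusted p under 0.05, as had 0 of all 31042 (0%), and the smallest adjusted p among the 60 was 0.772. At an unadjusted limma p under 0.05, 1 of the 60 was listed, with a positive difference, where 5.48% of all probe sets were, 3.23% positive and 2.25% negative. By their brightest probe set, 11 genes had a higher and 21 a lower mean in DMHF rats, with differences from -0.93 SD for Zfp36, which destabilises inflammatory mRNAs, to 1.04 SD for Fosl2, an AP-1 subunit. The median over the 32 genes was -0.06 SD, against 0.05 SD over all probe sets. A difference of more than 1 SD in size was seen in 1 of the 32 genes, against 16.2% of all probe sets. Nr4a1 differed by 48.6 millionths (SE 790), Egr2 by 504 (SE 1795), Junb by -27.2 (SE 164) and Dusp1 by -78.9 (SE 191), each less than its SE.

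The single listed probe set belonged to Ier5, a regulator of the heat shock factor, and was the dimmest of its 3. It stood at -0.96, 1.41, 0.77, -0.19 and -1.03 millionths in control rats and at 1.96, 3.44, 2.56, 1.71 and 1.46 in DMHF rats. All 5 DMHF rats lay above all 5 controls, which held for 0.867% of all probe sets in one direction or the other. The difference was 2.23 millionths (SE 0.606), or 2.36 SD, and did not pass (limma adjusted p = 0.772). The other Ier5 probe sets differed by 4.75 (SE 16.7) and 1.59 (SE 1.79) millionths, with overlapping groups.

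**Figure D2:**
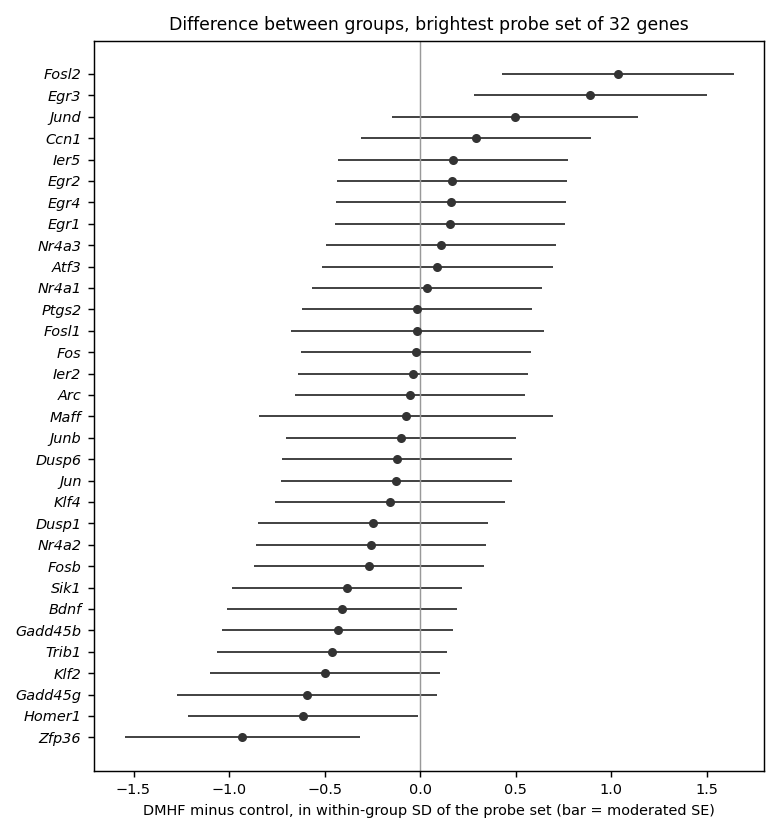
Difference of the DMHF mean from the control mean for 32 genes (y axis), in within-group SD of the probe set (x axis), with the moderated SE of limma as bars, 5 rats per group. The differences run from -0.93 SD for Zfp36 to 1.04 SD for Fosl2, and none passed the test.

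The variation between rats of one group was much larger for most of these genes than for a typical probe set. The median within-group SD of the 32 genes was 34.7 millionths, against 2.17 over all probe sets, whose 95th percentile was 18.6 and 99th percentile 92.8. At or above the 95th percentile were 18 of the 32 genes: Fos, Fosb, Junb, Egr1, Egr2, Egr4, Arc, Nr4a1, Nr4a2, Nr4a3, Dusp1, Dusp6, Klf2, Klf4, Ier2, Ier5, Ptgs2 and Trib1. Fos had an SD of 3207 millionths and Egr2 one of 2984, and both were among the 20 probe sets of largest SD on the array. Among the 100 of largest SD were 11 probe sets of 10 of the genes. At the other end, Maff, a small Maf protein, had an SD of 0.443, and Egr3, Fosl1, Gadd45g, Jund and Zfp36 also lay below the median of all probe sets. Because the sources used here do not say how the authors' processing acted on spread, these SDs are described and not tested.

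**Figure D3:**
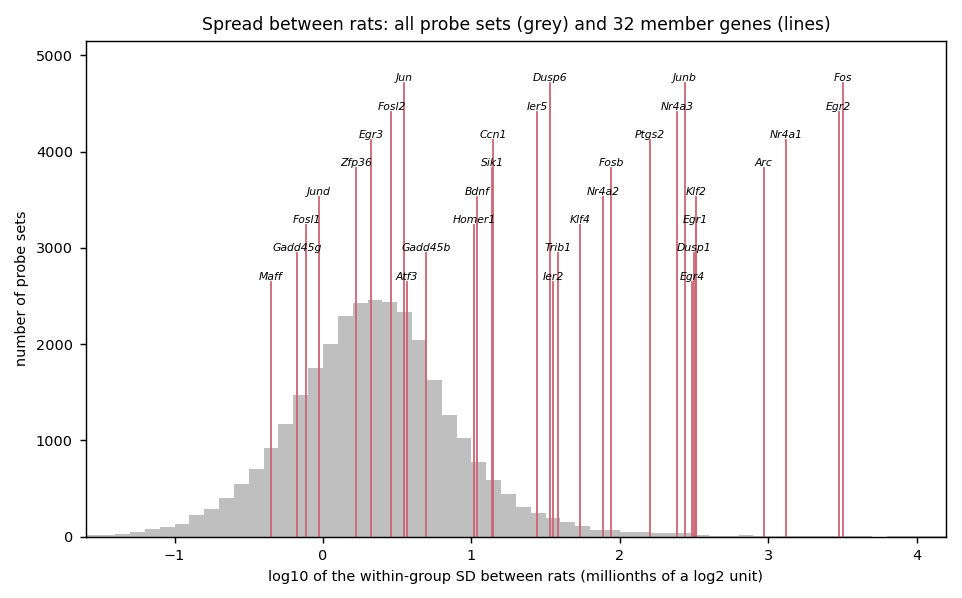
Histogram of the within-group SD of all 31042 probe sets (grey bars, number of probe sets on the y axis) on a log10 axis in millionths of a log2 unit, with a line at the SD of each of the 32 genes. Line heights only separate the names. Fos and Egr2 lie far to the right at 3207 and 2984, and Maff lies at the left at 0.443.

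The next question was whether the genes moved together from rat to rat once the group means were removed. With Fos as the reference, 20 of the other 31 genes had an unadjusted limma p under 0.05 for covariation, all with positive sign. Counted by probe set these were 31 of 59, against 7.17% of all 31041 probe sets (3.59% positive and 3.58% negative). None of the 59 passed after adjustment over all probe sets, as none of all 31041 did (0%), with a smallest limma adjusted p of 0.144 among them and 0.123 overall. The exact test over the 14400 permutations of rats within groups listed 31 of 59 at an unadjusted p under 0.05, against 7.32%, and its adjusted p was 0.634 or more. The median r with Fos over the 31 genes was 0.784, against -0.0273 over all probe sets, and 29 of the 31 were positive. Without control rats 1 and 3, which lay farthest from the median of Fos, the median r was 0.683 and 28 were positive.

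Junb was closest to Fos, with Pearson r = 0.956 (exact permutation p = 0.0016) and Spearman rho = 0.915 (exact permutation p = 0.00257), and r = 0.885 without control rats 1 and 3. Its limma adjusted p was 0.144, so the relation did not pass over the whole array. Nr4a1 had r = 0.954 (exact permutation p = 0.00271) and rho = 0.891 (exact permutation p = 0.00444), and r = 0.865 without those 2 rats. Dusp1 had r = 0.947 (exact permutation p = 0.00313) and rho = 0.842 (exact permutation p = 0.0106), and r = 0.863 without them. These 3 and Egr4 (0.933), Nr4a2 (0.928), Egr2 (0.926), Egr1 (0.925) and Arc (0.923) formed the top of the order, with r between 0.807 and 0.943 for each of them when the 2 rats were left out.

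Below them came Klf2 with r = 0.894, Nr4a3 with 0.849, Klf4 with 0.836, Trib1, a pseudokinase scaffold, with 0.815, and Ier2 with 0.798. Ier5 (0.795), Sik1, a kinase that restrains CREB coactivators (0.787), Ptgs2 (0.784), Dusp6, a phosphatase of ERK (0.747), and Fosb (0.733) followed. Gadd45b and Ccn1 were the last with an unadjusted limma p under 0.05, at 0.659 and 0.652, and Ccn1, a secreted matrix protein, went to 0.209 without control rats 1 and 3. Atf3, a stress-induced factor, went from 0.485 to 0.0323 without them.

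Several genes of the list did not follow Fos. Bdnf, the neurotrophin whose mRNA comes from many promoters, had r = 0.123, Maff 0.194, Zfp36 0.303, Fosl1 0.316, Jund 0.322 and Egr3 -0.0059. For Jun r was -0.312 (0.0723 with a common array median, which also took Egr3 to 0.370), and its other probe sets had r of -0.0702 and -0.0683. The split ran along the spread between rats: the 17 genes besides Fos at or above the 95th percentile of SD had r from 0.733 to 0.956, and all 17 had an unadjusted limma p under 0.05. The 14 genes below it had r from -0.312 to 0.787 with a median of 0.391, and 3 of them had such a p. Whether the smaller spread limited r was not tested.

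**Figure D4:**
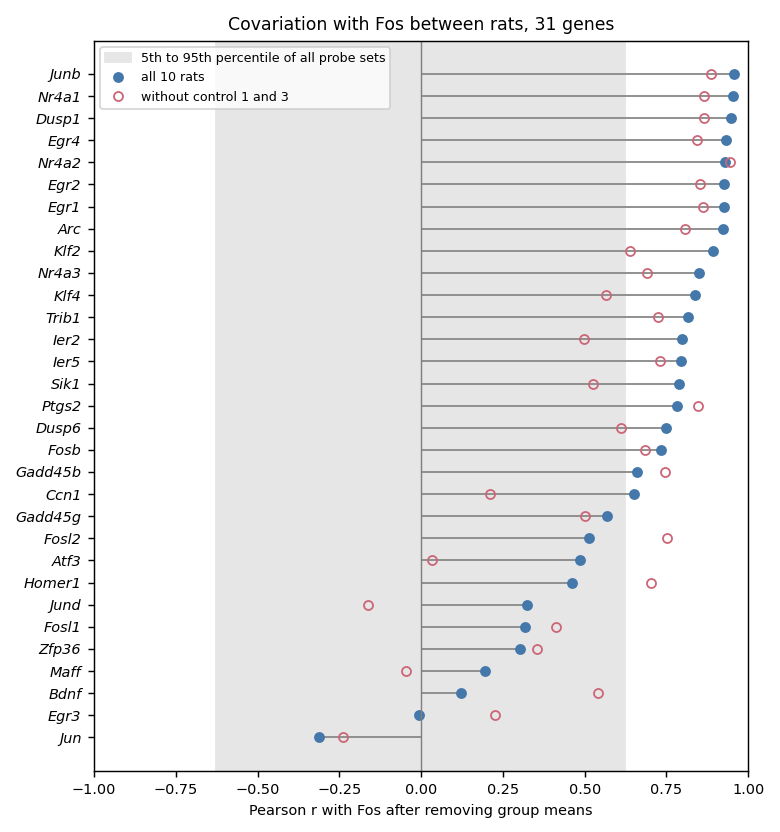
Pearson r with Fos over 10 rats after removal of the group means (x axis) for 31 genes (y axis), with all rats (filled) and without control rats 1 and 3 (open). The grey band runs from the 5th to the 95th percentile of all probe sets, -0.627 to 0.622, and 20 genes lie to the right of it.

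Probe sets of one gene did not always behave alike. The brightest of 5 Homer1 probe sets had an SD of 10.4 millionths and r = 0.460 with Fos, while the dimmest had an SD of 1150 and r = 0.743. Homer1 encodes a postsynaptic scaffold whose short form is induced by activity, and which probe set measures which form was not determined here. The dimmest stood at -807, -326, 2355, -15.4 and -1208 millionths in control rats and at -987, 240, 915, -1018 and -570 in DMHF rats, so that rat 3 was the highest in both groups but rat 5 and rat 4 the lowest. The second Fos probe set had an SD of 5.79 and r = 0.225 with the first. Both Dusp1 probe sets (0.947 and 0.921), both Nr4a2 probe sets (0.928 and 0.871) and all 3 of Nr4a3 (0.849, 0.856 and 0.765) followed Fos. Others split: the second Egr4 probe set had r = 0.379 against 0.933 for the brightest, and that of Sik1 0.454 against 0.787. The dimmer Ier5 probe sets had 0.553 and 0.475, and those of Trib1 0.224 and 0.303. For Fosl2 the dimmer probe set followed Fos more closely, at 0.808 against 0.514. Of 5 Klf2 probe sets, 3 had r over 0.76 and the remaining pair 0.265 and 0.253.

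The same rats were the extremes for many of the genes. In control rats, 15 of 31 genes had rat 1 as the lowest and rat 3 as the highest, as Fos did, or 24 of 59 probe sets against 5.69% of all. Among DMHF rats it was 14 of 31 genes, or 20 of 59 probe sets against 7.2% of all. In both groups at once it held for 10 genes (Arc, Egr1, Egr2, Egr4, Ier5, Junb, Nr4a1, Nr4a2, Nr4a3 and Sik1), or 13 of 59 probe sets against 0.908%. Control rat 1 lay above its group mean for only 3 of the 32 genes and control rat 3 for 28. DMHF rats 1, 4 and 3 did so for 6, 5 and 27. Because the genes covary, these counts restate the same shared pattern, and no share over all probe sets is given for them. Whether the replicate number stands for a factor shared by both groups was not tested. With the number as a block in the fit, 11 of the 59 probe sets instead of 31 had an unadjusted limma p under 0.05 for covariation with Fos. The share over all probe sets in that fit is not given here, so this count has no background beside it.

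Fos was not the gene with the most partners at r over 0.8. Over the 496 pairs of the 32 genes the mean r was 0.430 and the median 0.475, and 98 pairs (19.8%) had r over 0.8. Over all pairs of probe sets the mean was 0.0015, and 0.793% of pairs had r over 0.8. Arc, Junb and Nr4a1 each had r over 0.8 with 15 other genes, Egr2 with 14, Egr4 with 13, and Fos, Egr1, Nr4a3 and Trib1 with 12, while 9 genes had no such partner. By the median r with the other genes, Fos (0.784) lay close to Arc (0.78), Nr4a1 (0.789) and Junb (0.8).

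When each gene in turn took the place of Fos as the reference, 8 of the 496 pairs passed limma's test with one or the other gene as the reference, with adjustment over the 31041 other probe sets for each reference. All 8 were positive. In 6 of them either gene as the reference gave a pass, and in both pairs with Nr4a3 only the Egr gene as the reference did. They made up 14 of 992 ordered pairs, against 47 of 993312 tests of the same 32 references over all probe sets (0.00473%). Adjusted jointly over all those tests, 2 pairs passed, as 4 ordered pairs of 992 against 0.000503% of all tests.

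The pairs fell into 2 sets without a gene in common, and where one gene is said to follow another the p is that with the latter as the reference. Egr1, Egr2, Egr4 and Nr4a3 formed the first. Egr1 and Egr2 put all rats in the same order after removal of the group means, with r = 0.994 and rho = 1, both at the smallest exact permutation p the design can give, 6.94e-05 (limma adjusted p = 0.000179, jointly adjusted p = 0.00286). Egr4 followed Egr2 with r = 0.978 (limma adjusted p = 0.0201) and Egr1 with r = 0.974 (limma adjusted p = 0.0344). Nr4a3 followed Egr2 with r = 0.967 (limma adjusted p = 0.0472) and Egr1 with r = 0.958 (limma adjusted p = 0.0453).

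Arc, Junb and Nr4a1 formed the second set. Junb and Nr4a1 had r = 0.992 (exact permutation p = 0.000139) and rho = 0.952 (exact permutation p = 0.00139), with a limma adjusted p of 0.000602 with Junb as the reference and a jointly adjusted p of 0.00482. Arc followed Nr4a1 with r = 0.982 (limma adjusted p = 0.00853) and Junb with r = 0.976 (limma adjusted p = 0.0178). Pairs across the sets were also high, such as Egr4 with Nr4a1 at r = 0.925, but did not pass. DMHF rat 2 separated the sets in a comparison made after the values were seen: it lay above the control mean for Egr1, Egr2, Egr4 and Nr4a3 and below it for Arc, Junb, Nr4a1 and Fos. With control rat 1 or control rat 3 left out, 2 pairs passed instead of 8, Egr1 with Egr2 and Junb with Nr4a1, and these passed in all 10 fits that left out a rat. With both of those rats left out, 0 passed, and with the replicate number as a block in the fit 0 passed as well. With arrays shifted to a common median 79 pairs passed, the 8 among them. The share of all tests that passed in that setting is not given here. The shift is shared by all probe sets and exceeds the spread of the quieter genes, and its part in these passes was not tested.

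Dusp6 and Trib1 made a further close pair, with r = 0.948 and rho = 0.988 and the smallest exact permutation p possible for each (6.94e-05), but not past the test (limma adjusted p = 0.273 with Dusp6 and 0.139 with Trib1 as the reference). Klf2 and Klf4 had r = 0.931, and Ier2 and Ccn1 had 0.884. Jun had a negative r with 27 of the other 31 genes on the deposited scale, but with 10 of 31 once the arrays were shifted to a common median. With Jun as the reference on the deposited scale, 7 genes had an unadjusted limma p under 0.05 with negative sign and 0 with positive sign, where 15.8% of all probe sets had such a p in either direction. The lowest r of all pairs was -0.790 between Jun and Fosl1, which went to -0.198 without the 2 rats farthest in Jun, while r between Jun and Sik1 was -0.749 and stayed at -0.738. With a common array median these became 0.627 and 0.136. Jun's values lay between -5.63 and 4.40 millionths, a narrower span than that of the array medians.

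**Figure D5:**
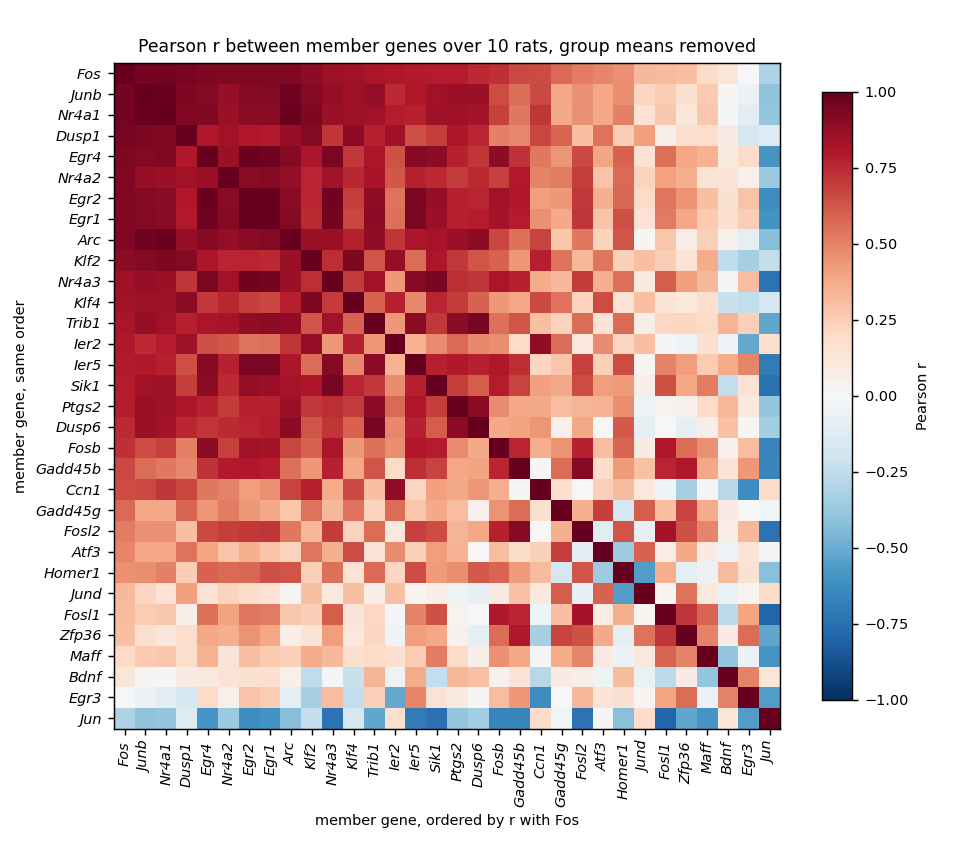
Pearson r between each pair of 32 genes over 10 rats with the group means removed, from -1 (blue) to 1 (red), with genes on both axes in the order of their r with Fos. The block of Fos, Junb, Nr4a1, Dusp1, Egr4, Nr4a2, Egr2, Egr1 and Arc is dark red, and the Jun row is mostly blue, down to -0.790 with Fosl1, a sign that turned (0.627) with a common array median.

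Other genes of the same response were taken from separate lists, which were also chosen with earlier results of these data known. Of 33 further immediate early genes measured, 9 had an unadjusted limma p under 0.05 for covariation with Fos, all positive, with a median r of 0.540, where 7.17% of all probe sets had such a p. Fbxo33 had r = 0.930, the clock gene Per1, which CREB induces, 0.815, Peli1 0.796 and Csrnp1 0.776. Of 24 genes that carry the signal to these promoters, 2 were listed, both positive: Mef2c, a calcium-dependent transcription factor (0.761), and Ppp3ca, the catalytic subunit of calcineurin (0.679). Of 19 late response genes, 1 was listed, the secretogranin Scg2, with r = -0.788. The counts of both of these lists lie near the share over all probe sets, and none of the genes passed after adjustment by limma.

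Markers of brain regions and cell types were set against Fos in the same way, and in bulk tissue fewer cells of a type and less RNA per cell cannot be told apart. None passed after adjustment, and the counts that follow stand beside 3.59% positive and 3.58% negative over all probe sets. Of 9 forebrain excitatory neuron markers, 4 had an unadjusted limma p under 0.05, all positive, with a median r of 0.591, among them the vesicular glutamate transporter Slc17a7 (0.689) and the calmodulin-binding Nrgn (0.646). Their summed level ranged from -112 to 148 millionths from the control mean in control rats and from -193 to 91.3 in DMHF rats. Of 10 markers of meninges and fibroblasts, 6 were listed, all negative, with a median r of -0.691 and Col3a1, a fibrillar collagen, at -0.856. Their summed level ranged from -821 to 858 in control rats and from -910 to 560 in DMHF rats. Oligodendrocyte markers gave 3 of 7, all negative, with Cldn11 at -0.839, and summed levels of -37.8 to 15.4 and -34.6 to 27.1. Of 10 hypothalamus markers, 4 were listed, all negative: Oxt, Hdc, Gal and Trh, with r between -0.716 and -0.650. Over the 10 the median r was -0.471 and the highest 0.361, and only 3 lay above the median level of all probe sets.

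The remaining marker lists gave fewer. Cerebellum gave 2 of 8, olfactory bulb 2 of 6, choroid plexus 1 of 10 and endothelium and mural cells 2 of 13, all negative. Pituitary gave 2 positive and 2 negative of 9, neurons 1 positive of 10, and striatum, microglia, astrocytes and blood 0 of 9, 10, 8 and 6 at an unadjusted limma p under 0.05. The median r with Fos was -0.541 for choroid plexus, -0.531 for cerebellum and -0.528 for astrocytes, near the -0.548 of oligodendrocytes. It was -0.234 for endothelium and mural cells, -0.203 for olfactory bulb, -0.170 for microglia and -0.0014 for pituitary. Blood (0.0803), neurons (0.276) and striatum (0.352) had a positive median. The markers' part in the covariation of the immediate early genes was not tested. The array median had r = -0.332 with Fos and the mean of the hybridization controls r = -0.217 (exact permutation p = 0.518). The difference between the 3' and 5' probe sets of beta-actin had r = 0.0749 with Fos (exact permutation p = 0.881). It spanned only -0.434 to 0.446 millionths from the control mean, where the median within-group SD of all probe sets was 2.17. That of GAPDH spanned -0.14 to 0.17. The same difference for hexokinase was wider, at -12 to 7.95 millionths in control rats and 4.96 to 20.5 in DMHF rats. It had r = 0.105 with Fos (exact permutation p = 0.779), and its difference between the groups was not tested. RNA integrity was not judged from these measures.

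By the fixed rule, the non-member genes most like Fos over the 10 rats were Hmgn1, Bmper, Moxd1, Psmc3ip, Lox, Kcns3, Zfp532, Tbl1xr1, Rhbdd1 and Actr3b. Hmgn1, a nucleosome-binding protein, had r = -0.979 (limma adjusted p = 0.123), and Bmper, a secreted BMP-binding protein, had r = 0.959 (limma adjusted p = 0.144). The other 8 had r between 0.910 and 0.945 in size, 4 of them positive and 4 negative. Of the 20 probe sets with the smallest p for covariation with Fos, 9 belonged to the immediate early genes.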

How the data were processed

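Per the labels' protocols, ISOGEN II and then an RNeasy kit gave total RNA from the right brain of 10 rats, and biotin-labelled cRNA made from it was measured on 10 Affymetrix rat arrays. The authors deposited 1 table of processed values, read here as log2 expression from their range because no log base is given. The submitters' processing notes name R 2.7.2. The sources used here do not give the background correction, the normalization, the summary over probes, the cage, the litter, or the batch and date of an array.

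From 31099 deposited probe sets, 57 Affymetrix controls were left out. Genes were named from the platform annotation, which ties 20826 probe sets to 1 gene. One further Homer1 probe set names Hax1 as well and was not used. The members and gene lists were chosen with earlier results of these data known.

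DMHF was compared with control in limma 3.58.1 (R 4.3.3; lmFit and eBayes, two-sided, 10 arrays, no covariate), with Benjamini-Hochberg adjustment over all probe sets and a threshold of 0.05. Covariation with Fos was tested by limma with the group and the value of the brightest Fos probe set as terms. Beside it, Pearson r and Spearman rho of group-centred values were tested by exact two-sided permutation within groups. The use of every member as the reference was added after the data were seen. All p-values judge a difference or a covariation against the variation between these rats, and the number of arrays limits their precision. The fits were tested on simulated data at an adjusted p under 0.05. They recovered 4% of group differences of 2 within-group SD and 70% of those of 4 SD. For covariation with Fos they recovered 4% at a simulated r of 0.7, 40% at 0.9 and 72% at 0.95. The absence of a pass therefore does not show the absence of a difference or of covariation.

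All members may be named, each by its brightest probe set and by others that disagree. From each other list up to 4 genes with the smallest p for covariation with Fos were named, and the 10 non-member genes with the smallest such p, leaving out symbols that start with LOC or RGD. Promoter windows came from RefSeq, assembly GRCr8, which need not be the assembly behind the array's design.

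Alternatives were arrays shifted to a common median, only the 15521 brighter probe sets, a trended, robust variance, a replicate block, 1 probe set for each gene, Arc or Junb in place of Fos, no group term, Spearman rho, the 2 rats farthest in Fos left out, and each rat left out in turn.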

Additional observations from a re-analysis of the deposited data

Results flagged for a closer look

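In groups of 5, a highest or lowest rat was marked where its gap to the nearest other rat exceeded a share of 0.71 of the group's range (Dixon's 95% critical value), in 64 groups of the brightest probe sets of 32 genes. Chance marks about 5% of such groups. Ptgs2 was marked in control rats at a share of 0.825, with rat 3 highest at 338 millionths from the control mean. Homer1 was marked in control rats at a share of 0.723, with rat 4 highest at 9.91 millionths.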

How the results depend on the processing

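The comparison of DMHF with control gave 0 member probe sets past limma's test under every alternative run, and 0 to 1 over all probe sets with a rat left out. Member probe sets at an unadjusted p under 0.05 numbered 0 instead of 1 with a common array median, with the brighter probe sets alone and with 1 probe set per gene, 3 with the replicate block, and 1 to 2 with a rat left out.

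For covariation with Fos, 5 probe sets passed instead of 0 with a common array median, 3 of them members (Dusp1, Junb and Nr4a1). With Arc in place of Fos 2 passed, both members, and with Junb 4, of which 2 were members. One setting at a time, 1 passed with no group term, with 1 probe set per gene, with the brighter probe sets alone and with a trended, robust variance. With a rat left out 0 to 1 passed, and 0 to 1 member. Member probe sets at an unadjusted p under 0.05 numbered 11 with the replicate block, 20 without the 2 rats farthest in Fos, 20 with 1 probe set per gene, and 24 to 30 with a rat left out, instead of 31. Shares over all probe sets in the alternative fits are not given here, for these counts or for those of the group comparison.

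The mean pairwise r, 0.430, became 0.583 with a common array median, 0.322 with all member probe sets, 0.396 as Spearman rho, 0.0954 with the replicate block, 0.343 without the 2 rats, and 0.374 to 0.460 with a rat left out. The 8 pairs became 79 with a common array median, 13 with 1 probe set per gene, 0 with the replicate block, 0 without the 2 rats, and 2 to 8 with a rat left out. A common median moves arrays against each other by up to 15.2 millionths for every probe set, more than the spread of many of them. Causes of these changes were not tested.

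Replicate numbers were not taken to pair rats, because the labels give them no such meaning. Over all probe sets the deviations of same-numbered rats had r of 0.214, 0.0329, 0.273, 0.0856 and 0.0288, with a mean of 0.127. Rats of different numbers had a mean of -0.0318, and 6 of 10 rats correlated best with their own number. Over the 32 members the same pairs had r of 0.157, 0.165, 0.104, -0.228 and -0.28, 3 of them over 0.1. The mean over members was -0.0163, against 0.00403 for different numbers, and 0 of 10 rats correlated best with their own number. Whether same-numbered rats shared a factor was not tested.

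The sign of r with Fos turned with a common array median for Egr3 (0.370) and Jun (0.072), without the 2 rats for Egr3 (0.227), Jund (-0.161) and Maff (-0.047), and with the replicate block for Fosb (-0.521), Fosl1 (-0.795), Fosl2 (-0.507), Gadd45b (-0.210), Homer1 (-0.165), Jun (0.862), Maff (-0.332), Nr4a3 (-0.245), Sik1 (-0.550) and Zfp36 (-0.360). With a rat left out it ranged from -0.052 to 0.522 for Bdnf, -0.130 to 0.260 for Egr3, -0.081 to 0.546 for Jund and -0.004 to 0.456 for Maff.

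The difference between groups changed sign with a rat left out in 22 of 32 genes, in millionths: Arc (-391 to 326), Atf3 (-1.49 to 1.76), Ccn1 (-2.48 to 7.15), Dusp1 (-205 to 70.1), Dusp6 (-15.0 to 9.99), Egr1 (-66.1 to 158), Egr2 (-545 to 1581), Egr4 (-69.2 to 159), Fos (-1425 to 1185), Fosb (-53.7 to 5.24), Fosl1 (-0.310 to 0.232), Ier2 (-16.8 to 9.57), Ier5 (-3.10 to 14.4), Jun (-1.65 to 0.862), Junb (-140 to 98.8), Klf4 (-26.6 to 17.1), Maff (-0.180 to 0.131), Nr4a1 (-496 to 633), Nr4a2 (-49.9 to 1.30), Nr4a3 (-52.7 to 117), Ptgs2 (-36.0 to 82.2) and Sik1 (-9.95 to 0.0679).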
